A study of Hydra vulgaris with 12 samples.

Results

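The transcripts described here are those of Hydra vulgaris from which the PIWI protein Hyli carried many sense small RNAs while the PIWI protein Hywi carried few antisense ones. PIWI proteins bind short RNAs called piRNAs, which guide them to complementary transcripts. In the cycle known as ping-pong, best described in flies, an antisense piRNA directs cleavage of a transcript, and the cleaved transcript yields sense piRNAs that load into a partner PIWI protein. In Hydra, Hywi is known mainly for antisense and Hyli mainly for sense piRNAs of transposons. A Hyli sense signal with few Hywi antisense counts thus has little of one side of that pairing. In flies and mice, piRNAs are also known to be cut from the sense strand of ordinary mRNAs without an antisense partner.

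Members were chosen from small RNA counts in CPM, counts scaled to 1e+06 in each column, that is in each library and strand. A member had at least 50 CPM of Hyli sense counts in both colchicine-treated and wild-type animals, with less than a 4-fold difference between them. It had under 5 CPM of Hywi antisense counts in both, and more sense than antisense Hyli counts in both. These conditions were met by 64 of 38747 transcripts, below the limit of 200 that the selection allowed, so all were kept. Of 1191 transcripts that met the Hyli conditions, 694 had at least 50 CPM of Hywi antisense counts in both kinds of animal and 433 lay between. The 694 serve below as the Hywi-matched set. A mirror set of 99 transcripts had Hywi antisense counts of at least 50 CPM in both, less than 4-fold different, with Hyli sense counts under 5 CPM. The Hyli sense and Hywi antisense levels chose the members and are given as a description only, and the Hyli antisense share was bounded by the choice.

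All samples were whole animals of the AEP strain. The hywi knockdown libraries (n = 3) were mRNA of offspring of the hywi RNAi-1 line that had inherited its hywi hairpin transgene, which is active in epithelial stem cells. The wild-type sibling libraries (n = 3) came from offspring of the same line that lacked it. Both were collected 4 days after hatching, with 10 animals pooled per library. Small RNA came from Hyli and Hywi immunoprecipitates (IP) of 225 animals, and degradome RNA from 20 animals, with 1 library for each assay and condition. The colchicine-treated animals were depleted of interstitial cells, the stem cell lineage that gives rise to nerve, stinging and germ cells, and were of the cnnos1::GFP transgenic line. The wild-type animals of these assays are given as wild type, with no treatment named. Treatment and line therefore cannot be told apart, and fewer cells of a type and less RNA per cell cannot be told apart either. Degradome reads are 5-prime ends of polyadenylated RNA that bore no cap, and are called capless counts here, by the design of the assay. Whether small RNA reads add to them was not tested, and a relation given before the capless results bears on this for wild-type animals.

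The Hyli IP held 6.68 M sense counts in colchicine-treated and 28.8 M in wild-type animals, and the Hywi IP held 2.72 M and 2.81 M. The degradome was shallow, with 176897 counts in colchicine-treated and 765341 in wild-type animals, so 3 counts, used as the floor, were 17.0 CPM and 3.92 CPM. The mRNA libraries held 22.2 to 27.6 M counts. No gene names come with the transcripts, and 0 of their names matched the reference table, so members carry only their transcript names, cell-type markers could not be checked, and no sequence is shown. No transcript length was given, so CPM values are per transcript and not per length.

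**Figure D1:**
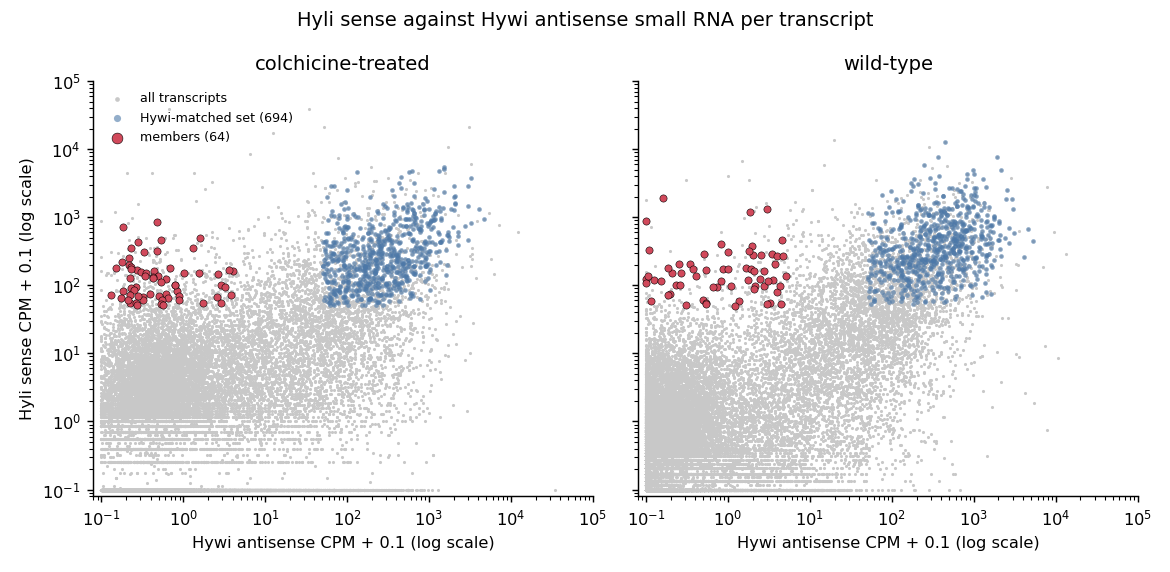
Hyli sense CPM (y) against Hywi antisense CPM (x) per transcript, both on log scales with 0.1 added, in colchicine-treated (left) and wild-type (right) animals, with 1 library per axis. The 64 members lie at 50 CPM or more of Hyli sense and under 5 CPM of Hywi antisense by choice, apart from the 694 transcripts of the Hywi-matched set at the right.

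Among the members, Hyli sense levels ran from 50.4 to 854 CPM in colchicine-treated and from 50.2 to 1892 CPM in wild-type animals, with medians of 107 and 137 CPM. Together the members held 1.03% of Hyli sense counts in colchicine-treated animals (95% Wilson interval 1.02 to 1.04%) and 1.47% in wild-type animals (1.466 to 1.475%). The level was higher in colchicine-treated animals for 24 of 64 members, and 42 lay within 2-fold between conditions. The highest-ranked member, t26312aep, had 854 CPM in colchicine-treated and 1192 CPM in wild-type animals. Next came t8681aep with 726 CPM in colchicine-treated and 1892 CPM in wild-type animals, and t18350aep with 464 CPM against 1303 CPM. Transcript t6432aep was nearly equal, with 303 CPM in colchicine-treated and 334 CPM in wild-type animals. In contrast to these 4, t6221aep had more in colchicine-treated (491 CPM) than in wild-type animals (274 CPM), as did t19214aep (439 CPM against 206 CPM). The first 8 were completed by t14592aep, with 249.5 CPM in colchicine-treated and 873 CPM in wild-type animals, and by t11411aep, with 199 CPM against 409.8 CPM.

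Hywi antisense levels among members reached 3.92 CPM in colchicine-treated and 4.94 CPM in wild-type animals, with medians of 0.336 and 0.887 CPM. The medians of all transcripts were lower still, at 0.241 CPM in colchicine-treated and 0.0569 CPM in wild-type animals, so the members are low beside the Hywi-matched set (medians of 248 and 346 CPM) and not beside the typical transcript. The member nearest that limit was t1241aep, with 0.376 CPM in colchicine-treated and 4.94 CPM in wild-type animals. Just outside it was t14703aep, with 4.38 CPM in colchicine-treated and 5.29 CPM in wild-type animals. At the Hyli minimum, t4665aep lay just inside with 70.8 CPM in colchicine-treated and 50.2 CPM in wild-type animals, and so did t20508aep with 50.4 CPM and 95.3 CPM. Just outside were t1957aep, with 48.4 CPM in colchicine-treated animals, and t4541aep, with 48.2 CPM in wild-type animals. At the fold limit, t20135aep lay just inside at 3.96-fold and t35776aep just outside at 4.06-fold, both lower in colchicine-treated animals.

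**Figure D2:**
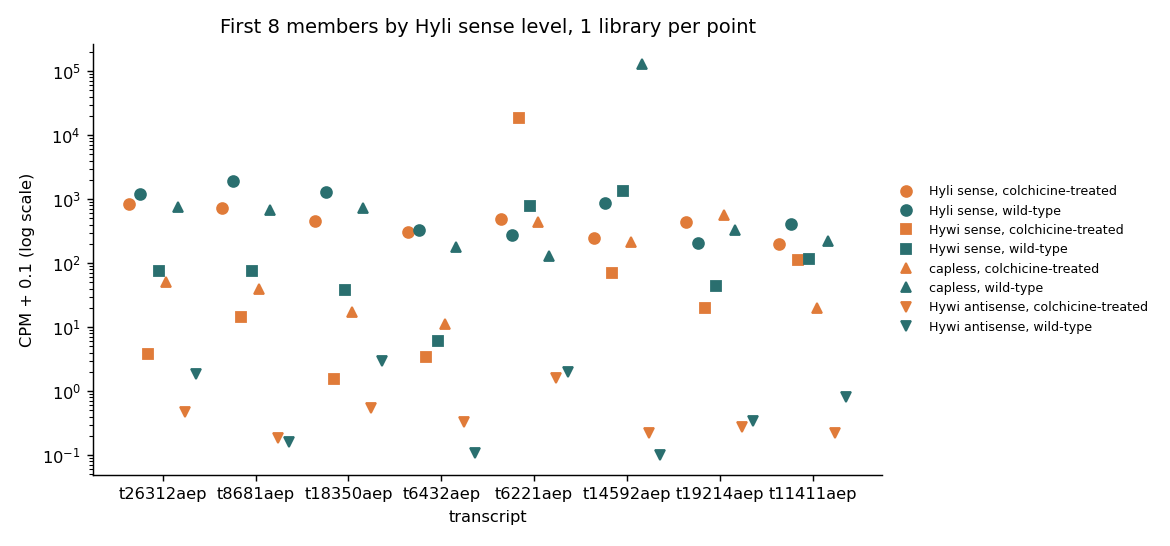
CPM on a log scale, with 0.1 added, for the first 8 members in colchicine-treated (orange) and wild-type (green) animals, 1 library per point. Hyli sense values (circles) lie between 199 and 1892 CPM, while Hywi sense values (squares) run from 1.47 CPM for t18350aep to 18411 CPM for t6221aep, both in colchicine-treated animals.

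The small RNAs of the members were nearly all of the sense strand in the Hyli IP. The median antisense share was 1.14% in colchicine-treated and 0.781% in wild-type animals, beside 13.5% and 4.17% in the Hywi-matched set, which met the same Hyli conditions. The sets differ by choice in Hywi antisense counts. Whether that choice alone lowers the members' Hyli antisense share was not tested. The share was under 1% in both conditions for 26 members and at least 10% in either for 10. By the mean of both conditions, the lowest shares were those of t8681aep, with 0% in colchicine-treated and 0.0145% in wild-type animals, t18350aep (0% and 0.0451%) and t35109aep (0.00578% and 0.0493%). The highest by that mean were those of t11410aep, with 33.6% in colchicine-treated and 13.6% in wild-type animals, t27034aep (24.3% and 19.4%) and t472aep (30.2% and 2.53%). In wild-type animals alone the highest was t20021aep with 21.4%, and the lowest was t4665aep with 0%. Antisense counts are mostly fractions of reads shared among transcripts, so these few antisense counts can belong to other transcripts.

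Hywi carried sense counts of many of these transcripts. This column did not enter the choice of members. In colchicine-treated animals 28 of 64 members had at least 50 CPM of Hywi sense counts, against 4.1% of all transcripts. In wild-type animals 33 of 64 did (51.6%), against 4.42% of all transcripts. In the Hywi-matched set 47 of 694 did in colchicine-treated (6.77%) and 178 in wild-type animals (25.6%). In both conditions together 27 members did (42.2%), beside 36 of 694 in the Hywi-matched set (5.19%) and 1 of 99 in the mirror set. At 10 CPM instead of 50, the wild-type shares were 70.3% of members and 74.8% of the Hywi-matched set. In colchicine-treated animals they were 60.9% and 29.3%. Sense counts exceeded antisense counts in both Hywi libraries for 42 members (65.6%), beside 19.1% of all transcripts, but the limit on Hywi antisense counts itself raises this count. Sense counts were the smaller strand of the Hywi IP, so scaling by both strands together lowers these levels. With that scaling 31 members were chosen, of which 8 in colchicine-treated and 5 in wild-type animals had at least 50 CPM of Hywi sense counts. Relative to the total of its own column, Hywi sense exceeded Hyli sense for 34.4% of members in colchicine-treated and 32.8% in wild-type animals. In the Hywi-matched set, which met the same Hyli conditions, the shares were 0.720% and 2.31%. Over all transcripts, which had no Hyli minimum, they were 27.6% and 36.8%.

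The members differed widely among themselves in this measure. Hywi sense levels ran from 0 to 23426 CPM in colchicine-treated and from 0 to 5132 CPM in wild-type animals, with medians of 26.3 and 68.4 CPM. Transcript t13485aep was highest in both, with 23426 CPM in colchicine-treated and 5132 CPM in wild-type animals, and was the 4th most abundant Hywi sense transcript of the colchicine-treated library. Transcript t35545aep had 11437 CPM in colchicine-treated and 2187 CPM in wild-type animals, and t32740aep had 9856 CPM and 1913 CPM. By contrast, t4665aep had 0 Hywi sense counts in both libraries, which allows up to 3 counts in each. Hywi sense and Hyli sense levels were nearly unrelated across the 64 members, with a Spearman rho of 0.02 in colchicine-treated and 0.15 in wild-type animals. Hywi sense levels of the 2 conditions had a rho of 0.89. These values describe transcripts that share libraries and, in part, reads.

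Colchicine-treated and wild-type animals were then compared in Hywi sense counts, as log2 ratios of CPM + 1, a scale that shrinks the ratio where counts are low. Among the 45 members that reached 10 CPM in either library, 14 were at least 4-fold higher in colchicine-treated animals, against 14.3% of the 7037 transcripts that reached this minimum. A further 8 were at least 4-fold lower, against 30.2% of transcripts (3 to 16 members under other scalings and minimums), and 19 members were under 10 CPM in both. In the Hywi-matched set 15 of 538 were higher and 335 lower. With 1 library per condition none of these counts carries a test.

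The members that were higher reached large levels. Transcript t6221aep had 18411 CPM in colchicine-treated and 775 CPM in wild-type animals, a log2 ratio of 4.57, and t14425aep had 4003 CPM and 150.1 CPM, a log2 ratio of 4.73. Transcript t24024aep had 587 CPM in colchicine-treated and 49.0 CPM in wild-type animals. At the other end, t27034aep had 17.1 CPM in colchicine-treated and 362 CPM in wild-type animals (log2 ratio -4.32), and t14592aep had 69.7 CPM and 1365 CPM (-4.27). The first of the ranked members, t26312aep, was among the lower ones, with 3.67 CPM in colchicine-treated and 75.8 CPM in wild-type animals. Hyli sense levels of the 14 higher members differed far less between conditions, with log2 ratios from -1.53 to 1.30, a range that the choice of members held within 4-fold.

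**Figure D3:**
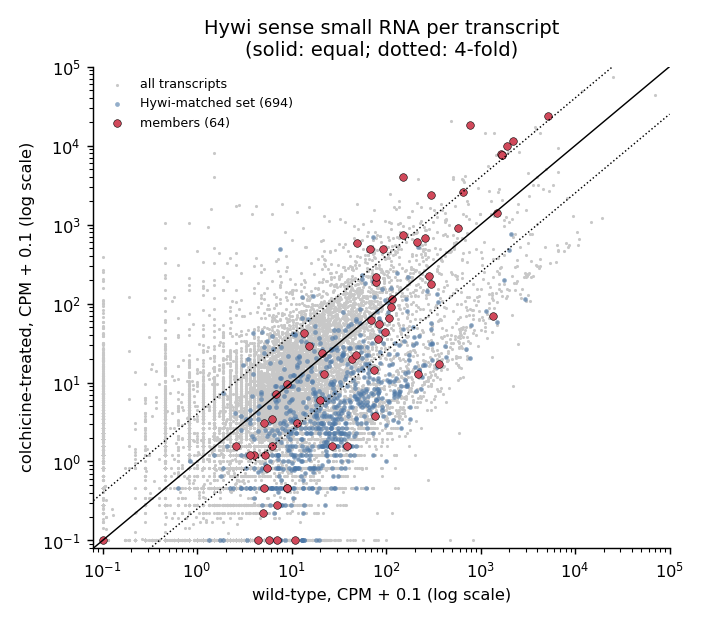
Hywi sense CPM in colchicine-treated (y) against wild-type animals (x) per transcript, log scales with 0.1 added, 1 library per axis. Of the members (red), 14 lie on or above the upper dotted line of 4-fold at up to 23426 CPM, while 335 transcripts of the Hywi-matched set (blue) lie 4-fold or more toward wild type.

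The members held 10.3% of all Hywi sense counts in colchicine-treated animals (95% Wilson interval 10.2 to 10.3%) and 2.29% in wild-type animals (2.27 to 2.31%). Without the 3 members highest in each library these shares were 4.94% and 1.37%. Part of this rests on transcripts that share reads. Sense counts were not whole numbers in at least 1 of the 4 sense columns for 30 members. Of these, the 6 transcripts t13485aep, t35545aep, t32740aep, t33901aep, t20021aep and t11410aep held 6.78% of Hywi sense counts in colchicine-treated and 1.43% in wild-type animals, with ratios between 4.55 and 5.23. They were grouped after their values were seen, and such values can be 1 signal divided over several transcripts. The 34 members with whole sense counts held 2.84% in colchicine-treated and 0.350% in wild-type animals. Some of these 34 were under 10 CPM of Hywi sense in both libraries and could not be counted as changed. Of the rest, 5 were at least 4-fold higher in colchicine-treated animals (t6221aep, t14425aep, t4560aep, t15583aep and t27670aep) and 4 were lower. The shares over all 7037 transcripts that reached 10 CPM were 14.3% higher and 30.2% lower. All intervals cover counting error only.

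Before the capless counts of the members, a property of the degradome libraries bears on them. In colchicine-treated animals the ratio of capless to Hyli sense CPM varied widely over the 2089 transcripts with at least 50 CPM of Hyli sense, with a median of 0.149, quartiles of 0.0469 and 0.621, and a Spearman rho of 0.44 between the values. In wild-type animals the capless CPM followed the Hyli sense CPM across all 2372 such transcripts. The ratio there had a median of 0.518, its middle 90% ran from 0.337 to 0.963, and no transcript lay below 0.117 or had 0 capless counts. With Hywi sense the rho was 0.33 over the 1714 transcripts with at least 50 CPM of Hywi sense. With sibling mRNA it was 0.46 over the 3408 transcripts with at least 50 CPM of that mRNA. These sets differ from the 2372, so their values are not compared with the rho for Hyli sense. The rho for Hyli sense was 0.92 over the 2372. It was 0.89 among the 904 of the 2372 whose sibling mRNA was under 1 CPM, where the median ratio was 0.505. Wild-type capless counts are therefore not treated as independent of the choice of members, which required Hyli sense counts. Whether the wild-type capless counts of these transcripts are ends of cleaved mRNA or hold small RNA reads was not tested.

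In colchicine-treated animals 39 of 64 members had at least 3 capless counts, against 11.5% of all transcripts, 10 had none, and the median level was 28.3 CPM. In wild-type animals all 64 had at least 3, against 19.4% of all transcripts, with 19 to 100715 counts and a median level of 120.1 CPM. The Hywi-matched set was not poorer in capless counts. At least 3 were found for 514 of its 694 transcripts in colchicine-treated animals (74.1%, against 60.9% of members) and for all 694 in wild-type animals. Its median levels were 56.5 and 182.9 CPM. The ratio of capless to Hyli sense CPM had a median of 0.256 in colchicine-treated and 0.726 in wild-type animals, beside 0.1995 and 0.529 in the Hywi-matched set. Transcript t14592aep stood alone, with 211 CPM in colchicine-treated and 131595 CPM in wild-type animals, 151 times its wild-type Hyli sense level. Without it the highest wild-type ratio was 4.58, that of t37818aep. Next in the wild-type degradome were t26312aep, with 50.9 CPM in colchicine-treated and 760.4 CPM in wild-type animals, and t18350aep, with 17.0 CPM and 726 CPM.

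Of the 64 members, 3 were at least 4-fold higher in the colchicine-treated degradome, against 33.3% of 7975 transcripts with 10 CPM in either library. In the other direction 33 were at least 4-fold lower, against 33.6%. All 64 passed the 10 CPM minimum through the wild-type library, where the lowest had 24.8 CPM, and 18 were under 10 CPM in colchicine-treated animals. Wild-type capless counts follow the Hyli sense counts that chose the members, less closely among members (rho 0.77) than in the Hywi-matched set (0.97). For this reason nothing is read from these counts of higher and lower members. The Hywi-matched set had 39 higher and 318 lower of 694, so lower transcripts outnumbered higher ones there too. The 3 higher members were t684aep, with 313 counts (1769 CPM) in colchicine-treated and 54 counts (70.6 CPM) in wild-type animals, t36035aep with 37 and 24 counts, and t11661aep with 35 and 30 counts. The other highest members of the colchicine-treated degradome were t15581aep, with 967 CPM there and 355 CPM in wild-type animals, and t19214aep, with 559.6 CPM and 333 CPM. With values under 3 counts raised to 3, 27 members were at least 4-fold lower and 3 higher.

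**Figure D4:**
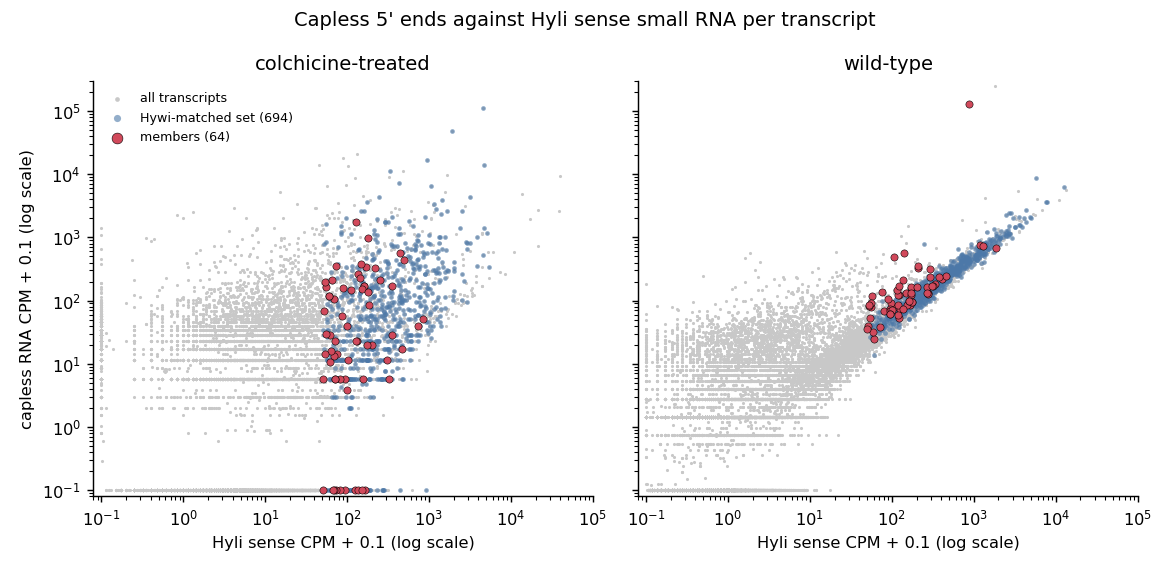
Capless CPM (y) against Hyli sense CPM (x) per transcript in colchicine-treated (left) and wild-type (right) animals, log scales with 0.1 added, 1 library per axis. In colchicine-treated animals 10 members (red) sit at 0 and the rest scatter up to 1769 CPM. In wild-type animals the Hywi-matched set (blue) lies along a narrow band. Members lie along a wider band there, with t14592aep far above at 131595 CPM.

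The mRNA libraries, which did not enter the choice and came from other animals than the IP, held reads of most members. Mean mRNA in wild-type siblings reached 1 CPM for 56 of 64 members (87.5%), against 40% of all transcripts, and 100 CPM for 19 (29.7%, against 4.44% of all). The 1 CPM level was also reached by most of the Hywi-matched set, 542 of 694 (78.1%), and by 31 of 99 in the mirror set. The median was 18.8 CPM for members, 2.45 CPM for the Hywi-matched set, 0.608 CPM for the mirror set and 0.355 CPM for all transcripts. Among members it was 80.9 CPM for the 34 with whole sense counts and 9.40 CPM for the 30 with fractional ones. In the Hywi-matched set 0 of 694 transcripts reached 100 CPM, and in the mirror set 0 of 99. Since these levels are not per length, they describe how many mRNA reads each transcript drew.

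The 3 members that drew most mRNA reads were t37818aep, t4560aep and t15581aep. Transcript t37818aep had 12012, 13587 and 14203 CPM in hywi knockdown replicates 1 to 3, against 12997, 14545 and 15219 CPM in wild-type siblings. Transcript t4560aep had 6786, 7096 and 7404 CPM in the knockdown against 7149, 7532 and 7027 CPM in siblings. Transcript t15581aep had 4982, 5894 and 5649 CPM in the knockdown against 5616, 6290.5 and 6774 CPM in siblings. The groups overlapped for all 3, and on the scaled log2 CPM scale each knockdown library was below the sibling library of the same number for all 3 (for t4560aep not in unscaled CPM). Their Hywi sense levels were 903 CPM in colchicine-treated and 575 CPM in wild-type animals for t37818aep, 2597 and 643 CPM for t4560aep, and 176 and 301 CPM for t15581aep.

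The 8 members under 1 CPM in siblings had little Hywi sense signal, from 0 to 1.47 CPM in colchicine-treated and from 0 to 38.1 CPM in wild-type animals. The 19 members with at least 100 CPM of mRNA ran from 0.367 to 4003 CPM of Hywi sense in colchicine-treated and from 2.49 to 1365 CPM in wild-type animals, with medians of 176 and 84.3 CPM. Across the 64 members, sibling mRNA had a Spearman rho of 0.39 with Hywi sense in colchicine-treated and 0.28 in wild-type animals. With Hyli sense it was 0.10 and -0.08. Transcript t18350aep shows the extreme, with Hyli sense at 464 CPM in colchicine-treated and 1303 CPM in wild-type animals beside sibling mRNA of 0.0148, 0.0363 and 0 CPM. It also had 3 capless counts in colchicine-treated and 556 in wild-type animals.

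The last comparison asked whether the members' mRNA changed when hywi was knocked down in epithelial stem cells. Of 61 members tested, 0 were higher and 0 lower at an adjusted p under 0.05 (edgeR quasi-likelihood, Benjamini-Hochberg over 19683 transcripts), against 0% of all transcripts in each direction. At an unadjusted p under 0.05 there were 0 members, against 2.93% of transcripts higher and 0.716% lower. DESeq2 called 0 members too, at an adjusted p under 0.05. With the replicate number as a block, which takes same-numbered libraries as pairs, 1.17% of transcripts were higher and 0.0914% lower. Again 0 members were called in each direction. At an unadjusted p under 0.05 in that fit, 10 members were higher and 2 lower, against 8.51% and 5.24% of transcripts. The smallest adjusted p of a member with the block was 0.195.

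Members' log2 fold changes centred near 0. Their median was 0.07, beside 0.02 over all tested transcripts, 0.25 in the Hywi-matched set and 0.27 in the mirror set. Above 0 were 34 of 61 members, beside 588 of 652 transcripts in the Hywi-matched set. In the fit with the replicate block the medians were 0.06 for members and 0.25 for the Hywi-matched set. Groups did not overlap, on the scaled log2 CPM scale, for 2 members higher (background 5.2%) and 2 lower (3.85%), and for 93 higher and 0 lower of 652 in the Hywi-matched set. On the same scale, members above or below the sibling of the same number in all 3 pairs were 15 and 15 of 61, against 20.1% and 20.3% of all tested. Without hywi knockdown 1 the members' median was -0.01, and without wild-type sibling 1 it was 0.20. Without each library in turn the Hywi-matched set stayed between 0.16 and 0.37. The members' median mRNA level was 4.88, 4.39 and 4.51 log2 CPM in knockdown replicates 1 to 3 and 4.86, 4.29 and 4.44 in siblings, so replicate 1 of both groups stood higher.

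Among members with a mean of at least 1 CPM, the 3 highest and 3 lowest log2 fold changes did not pass the test. Transcript t29382aep had 3.77, 4.36 and 1.18 CPM in the knockdown against 2.92, 1.71 and 0.857 CPM in siblings, with a log2 fold change of 0.71 ± 0.52 (SE). Transcript t24024aep had 9.94, 7.76 and 7.79 CPM in the knockdown against 8.10, 5.75 and 3.95 CPM in siblings, with 0.45 ± 0.22 (SE). Both were above their sibling of the same number in all 3 pairs, with groups that overlapped. Transcript t18122aep had a log2 fold change of 0.38. On the lower side were t26312aep (-0.37), with 19.0, 9.75 and 9.12 CPM in the knockdown against 27.9, 12.4 and 6.64 CPM in siblings, t16886aep (-0.32) and t15581aep (-0.26). All 6 had an adjusted p between 0.875 and 0.882 (edgeR). Transcript t14592aep, which carried the wild-type degradome signal, differed widely within both groups, with 83.9, 440.4 and 70.9 CPM in the knockdown against 228, 179 and 56.5 CPM in siblings. Its direction turned with the pair left out of the blocked edgeR fit, at 0.75 without replicate 1 (adjusted p 0.00536) and -0.70 without replicate 2 (adjusted p 0.000738). Below 1 CPM, t4665aep had the highest log2 fold change of all members tested, 0.94 ± 0.43 (SE), with 0.475, 0.481 and 0.589 CPM in the knockdown against 0.135, 0.218 and 0.390 CPM in siblings (adjusted p 0.875, edgeR). Its groups did not overlap, and it is named here after its values were seen.

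**Figure D5:**
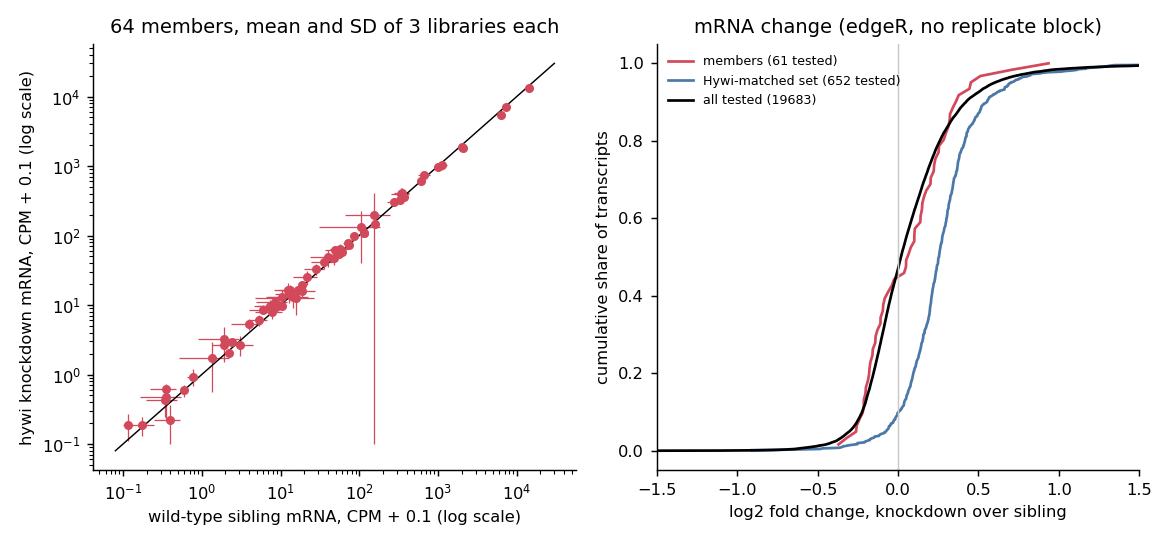
Left, mean mRNA of each of the 64 members in hywi knockdown (y) against wild-type siblings (x), CPM with 0.1 added on log scales, bars showing SD of 3 libraries (lower ends stop at 0). Right, cumulative share of transcripts by log2 fold change, where members (median 0.07) follow all tested transcripts (0.02) and the Hywi-matched set lies to the right (0.25).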

How the data were processed

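The authors deposited 3 tables of estimated counts per transcript, not normalized, for the same transcripts. Per the file headers, IP counts were raw, with sense and antisense mapping apart, and degradome counts were sense only. Many are fractions. Trimmomatic 0.33, RSEM 1.2.31 and Bowtie 1.1.2 (mRNA), and cutadapt, RSEM 1.2.31 and Bowtie (IP, degradome), are named per the submitters' processing notes, and other settings are not given in the sources used here. All 16 value columns were used.

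CPM used column totals. The mRNA counts were rounded, filtered (filterByExpr), TMM-scaled and tested with edgeR 4.0.16 (R 4.3.3), two-sided, without and with a replicate block, and with DESeq2 1.42.0. Ratios between conditions had a pseudocount of 1 CPM and a minimum of 10 CPM in either library. Wilson intervals are 95%. Whole numbers were called within 1e-06. Python 3.11.15, pandas 2.3.3 and scipy 1.17.1 were used. Fits and selection were tested on simulated data.

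Replicate numbers 1 to 3 recur in both mRNA groups, and what they mark is not stated. Deviations from group means correlated by 0.62, 0.27 and 0.30 between same-numbered libraries, each over 0.1, so the numbers were taken as pairs. Also over 0.1 were knockdown 2 with sibling 3 (0.20) and knockdown 3 with sibling 2 (0.15). The other correlations between differently numbered libraries were negative. Only number 1 thus stood clearly apart, and the pairing of numbers 2 and 3 is uncertain. Replicates differed by more than sampling noise (chi-square per degree of freedom 13.0 to 44.5). Beyond their pooled animals nothing says that replicates were separate cultures, so p-values measure the spread between these samples.

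Members and lists were chosen with earlier results of these data known. Transcripts were named by rank, mRNA level and change, capless level, Hywi sense level, nearness to a threshold and Hyli antisense share. Others, such as members at least 4-fold higher in the degradome or in Hywi sense, were named after their values were seen. The hywi transcript is not analysed here.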

Additional observations from a re-analysis of the deposited data

Results flagged for a closer look

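The share of Hywi sense counts held by the 64 members was larger in colchicine-treated than in wild-type animals, by 7.98 percentage points. For Hyli sense counts the same difference, colchicine-treated minus wild-type, was -0.442 percentage points. The Hyli side was held within 4-fold for every member by the choice, so it gives no contrast with Hywi. Its median log2 ratio was -0.43 for members and -0.43 for the 6057 transcripts with 10 CPM in either library. For Hywi sense the median was -0.009 for the 45 members and -0.146 for the 7037 transcripts that reached this minimum. Each value rests on 1 library per condition, and the difference between the proteins was not tested.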

How the results depend on the processing

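Of 288 values recomputed under another setting, 229 kept their direction and side of the threshold or moved little. The selection moved the counts most. A Hyli minimum of 20 CPM gave 157 members, of which 141 had 1 CPM of sibling mRNA, 89 in colchicine-treated and 157 in wild-type animals had 3 capless counts, and 69 and 72 had 50 CPM of Hywi sense, with median Hyli antisense shares of 2.40% and 1.26%. In the same order, a minimum of 100 CPM gave 29 members, then 25, 23 and 29, 14 and 15, and 0.691% and 0.604%. A Hywi antisense limit of 1 CPM gave 28 members, then 27, 20 and 28, 13 and 15, and 0.775% and 0.413%. Scaling by both strands gave 31 members, then 26, 23 and 31, 8 and 5, and 0.793% and 0.604%. Keeping only members with whole sense counts, chosen after seeing the data, gave 34 members, then 30, 21 and 34, 11 and 13, with a wild-type antisense share of 0.536%. Of those 34, 17 were 4-fold lower in the colchicine-treated degradome. Among those of the 34 that reached 10 CPM of Hywi sense, 5 were higher and 4 lower in it. A Hywi limit of 10 CPM moved the wild-type antisense share to 0.562%. With the Hywi sense level set at 200 CPM instead of 50, 18 of the 64 members reached it in wild-type animals. Members 4-fold lower in Hywi sense numbered 5 with a pseudocount of 10 CPM, 5 with a minimum of 50 CPM, 16 with none and 3 scaled by both strands, settings added after seeing the data. Removing the limit of 200 changed nothing, since 64 met the conditions.

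In the mRNA comparison, DESeq2 called 1 transcript higher and 1 lower in the knockdown over all transcripts. In edgeR, which called 0 in either direction without the replicate block, the block gave 231 higher and 18 lower, and changed no call of a member. Leaving 1 pair out of the blocked fit gave 0 to 1 members higher and 0 to 2 lower. Those lower without pair 3 were t26312aep, with a log2 fold change of -0.52, and t16886aep, with -0.54 (adjusted p 0.0449 and 0.0448, edgeR). Without each library in turn and no block, t26312aep ran from -0.74 to 0.29 and t16886aep from -0.51 to 0.032, both above 0 without wild-type sibling 1. The cause was not tested. The degradome depth limits members with few counts, and 39 of 64 reached 3 counts in colchicine-treated animals.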
